A study of Homo sapiens with 12 samples.

Results

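The 9 genes described here encode the receptor chains, cytosolic RNA sensors and transcription factors of the type I interferon response. They are IFNAR1 and IFNAR2 (receptor), DDX58, IFIH1 and DHX58 (RNA sensors), STAT2 and IRF9 (transcription factor subunits), and IRF1 and IRF7 (interferon regulatory factors). They were taken by symbol, and all 9 were found among the 28008 genes of each of the deposited count tables. DDX58, whose current symbol is RIGI, was listed under its older symbol. The measurements are RNA-seq read counts from QGP-1 and BON-1, established human cell lines from pancreatic neuroendocrine tumors (pNETs). All 12 libraries came from cells with the tet-MUC1shRNA genotype, in which doxycycline (DOX) switches on a short hairpin RNA against MUC1. Each line was treated with vehicle (DMSO) or with 500 ng/mL DOX for 7 days, and 3 libraries were sequenced in each of the 4 groups. The comparisons ask how these genes differed between DOX and vehicle in each line, whether that response differed between the lines, and how the lines differed with vehicle.

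In type I interferon signaling, the sensors RIG-I (DDX58) and MDA5 (IFIH1) detect double-stranded or otherwise foreign RNA in the cytosol and signal through the mitochondrial adaptor MAVS to the factors IRF3 and IRF7, which switch on interferon genes. LGP2 (DHX58) is a related helicase without the signaling domain and modulates the other sensors. Secreted interferon binds the receptor made of IFNAR1 and IFNAR2, whose Janus kinases phosphorylate STAT proteins, among them STAT2. With IRF9 these form the complex ISGF3, which binds the interferon-stimulated response element (ISRE) of its target genes. Several of the genes, among them DDX58, IFIH1, DHX58, STAT2, IRF9 and IRF7, are themselves known interferon targets. IRF1 is a known target of STAT dimers, which bind the gamma-activated site (GAS).

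The promoter windows were searched for the sequence elements named above, the ISRE and the GAS. RefSeq promoters of build GRCh38.p14, each reaching from 250 bases before a gene's start to 50 bases from it, were matched by symbol for IFNAR1, with 2 starts, and for DDX58, IFIH1, STAT2, IRF9 and IRF1, with 1 each. IFNAR2, DHX58 and IRF7 had no entry. The ISRE core was searched as GAAA, any 2 bases and GAAA again, and the GAS as TTCNNNGAA, both on either strand. Of the 7 windows only that of IFIH1 held an ISRE core, against 1255 of all 35116 promoters of this length (3.57%) and 26 of 39 windows of a list of interferon-stimulated effector genes (66.7%). The IFIH1 window had 3 matches, at −159, −153 and −21 bases from the start, of which the first 2 overlap each other on the opposite strand. It is printed whole, 5′ to 3′ on the minus strand (chr2:162318635-162318934), with the matches in capitals.
IFIH1 promoter: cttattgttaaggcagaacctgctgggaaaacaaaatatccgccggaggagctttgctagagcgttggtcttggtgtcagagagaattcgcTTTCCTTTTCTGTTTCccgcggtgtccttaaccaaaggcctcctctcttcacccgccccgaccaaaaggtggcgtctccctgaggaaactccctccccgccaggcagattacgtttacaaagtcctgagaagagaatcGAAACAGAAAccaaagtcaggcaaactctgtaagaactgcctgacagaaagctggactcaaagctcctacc
A GAS was found in the windows of IRF9 and IRF1, against 2689 of all promoters (7.66%), and each is given with 30 bases on either side and the match in capitals. The IRF9 stretch lies on the plus strand (chr14:24161172-24161240) and its GAS begins 63 bases before the start. The IRF1 stretch lies on the minus strand (chr5:132490859-132490927) and its GAS begins 124 bases before the start.
IRF9 promoter, GAS: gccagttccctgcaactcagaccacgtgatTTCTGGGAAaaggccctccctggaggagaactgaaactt
IRF1 promoter, GAS: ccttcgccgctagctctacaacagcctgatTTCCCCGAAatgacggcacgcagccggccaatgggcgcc
These matches describe letters in a fixed window and were not tested for binding.

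Depth ran from 38224144 to 50525926 counts per library for QGP-1 and from 15981954 to 28484324 for BON-1. Levels are CPM, counts normalised by TMM over the 12 libraries together, which serve to compare libraries for 1 gene. Within a line, DOX was compared with vehicle by the quasi-likelihood test of edgeR, and a gene was called when its p, adjusted by Benjamini-Hochberg over all genes tested, was below 0.05. MUC1 itself fell in both lines, from 6.37 ± 0.867 to 0.850 ± 0.188 CPM (SD, n = 3 each) in QGP-1 cells, and from 18.4 ± 2.99 to 2.65 ± 1.25 CPM for BON-1. The same hairpin was used in both lines and no library without it was analysed here, so effects of DOX, of the hairpin and of MUC1 loss cannot be told apart. The labels call both lines pNET. Of 7 neuroendocrine markers, all were above 1 CPM in BON-1 cells, while QGP-1 cells had 6, with NEUROD1 at 0. With DOX the neuroendocrine sum was 7930 to 8437 CPM in BON-1 cells, below the 10345 to 13690 CPM with vehicle. The fall of the sum lay in the granin CHGA (log2 −1.46, from a mean of 7875 to 2870 CPM). SYP also fell there (−0.34), SCG2 rose (0.45), and CHGB, INSM1, ENO2 and NEUROD1 were not called. In QGP-1 cells the neuroendocrine sum was 3251 to 3796 CPM with vehicle and 3770 to 4265 CPM with DOX, and CHGB rose (0.39). The 4 epithelial markers were above 1 CPM in each group, and the keratins KRT8 (0.62) and KRT18 (0.58) rose with DOX in BON-1 cells. Over 6 immune markers the summed level was 10.8 to 13.3 CPM with vehicle and 17.5 to 21.6 CPM with DOX in QGP-1 cells. BON-1 cells had 25.0 to 27.6 and 51.2 to 55.5 CPM. The lysosomal CD68 made up most of that sum in BON-1 cells and LYZ in QGP-1 cells, while the leukocyte markers PTPRC, CD3E and CD14 were at or near 0. The part of these marker changes in the results below was not tested. In cultures measured in bulk, fewer cells expressing a gene and less RNA per cell cannot be told apart.

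With DOX, DDX58 moved in opposite directions in the lines, IFIH1 fell in both, and the 2 subunits of the interferon factor differed in which line they changed. In QGP-1 cells 3 of the 9 genes were higher with DOX (DDX58, STAT2 and IRF1) and 1 was lower (IFIH1), while over all 15089 genes tested 17.3% were called higher, 17.7% lower and 35% either way. BON-1 cells showed 1 gene higher (IFNAR1) and 4 lower (DDX58, IFIH1, DHX58 and IRF9) of the 8 that could be tested, against 17% of 14625 genes higher, 18.3% lower and 35.3% either way. IRF7 had no count in BON-1 cells and was not tested there. The share of the 9 genes called in QGP-1 cells was thus near the background, and in BON-1 cells the share called lower was above it. The 9 genes were chosen with earlier results of these data known, so these shares are a description. Their median log2 fold change was 0.27 for QGP-1 and −0.45 for BON-1, beside −0.01 over all genes tested in either line. The groups did not overlap for 5 of the 9 genes in QGP-1 cells, where 46.8% of all genes tested had no overlap, and for 5 of the 8 tested in BON-1 cells, where that share was 45.9%.

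**Figure D1:**
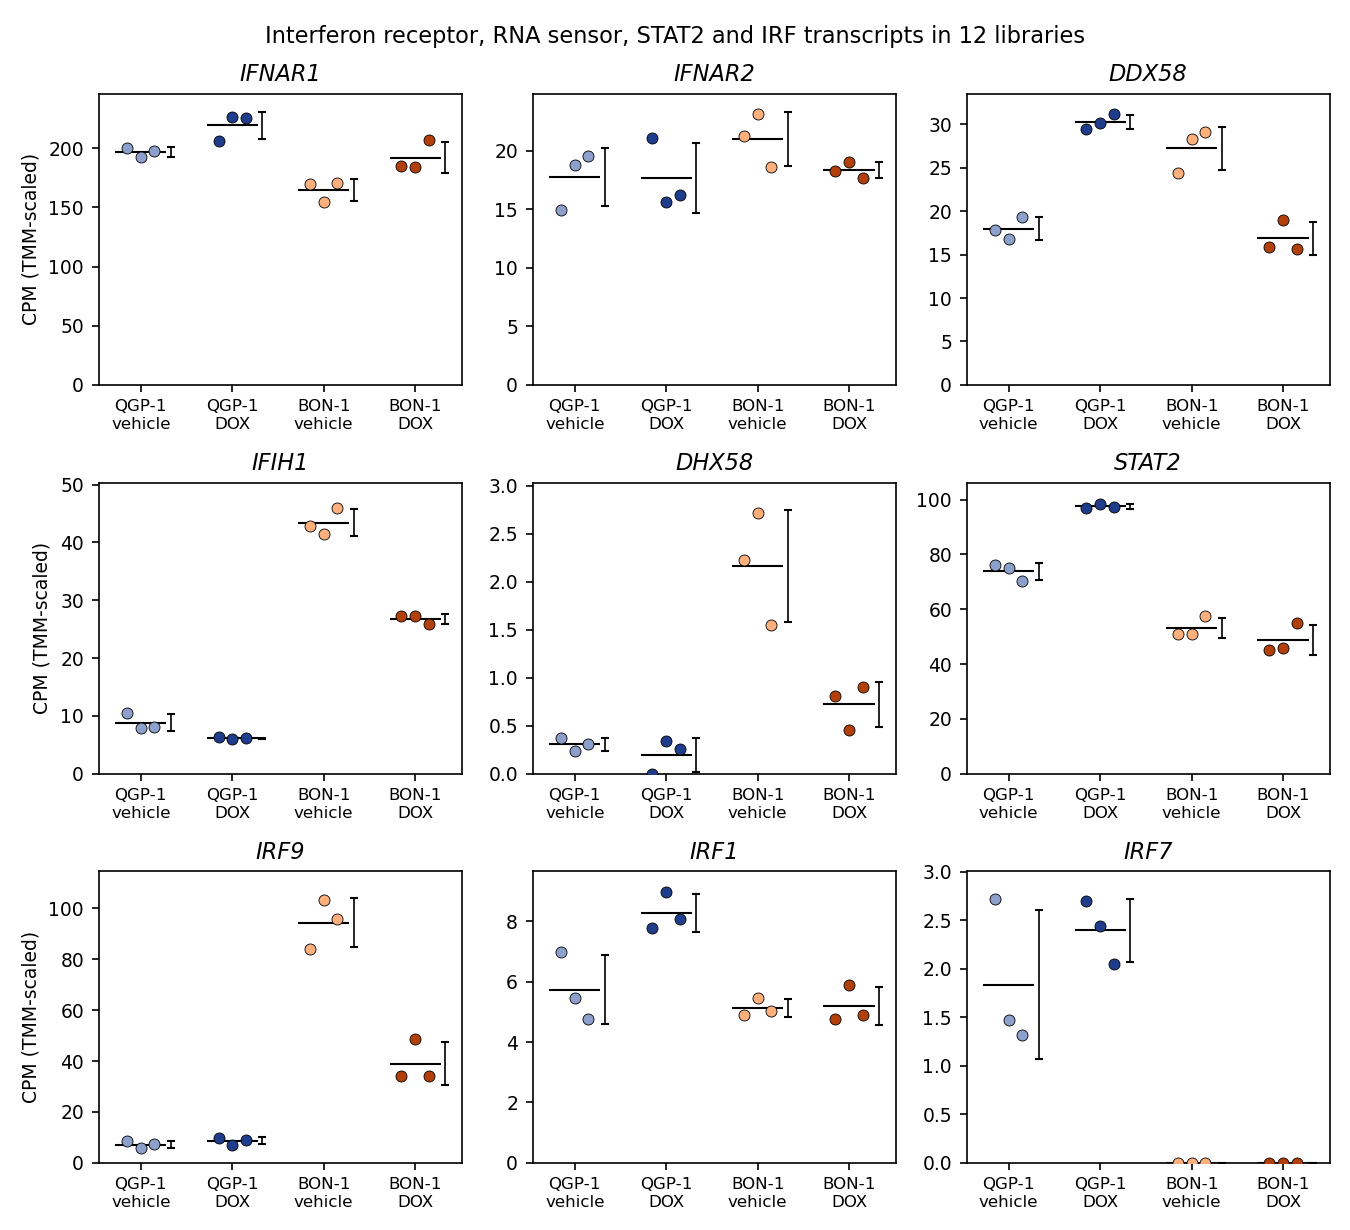
Level of each of the 9 genes in every library, in CPM on a linear axis from 0 for each gene, by line and treatment (points are libraries, lines are group means and bars beside them 1 SD, n = 3). DDX58 stands higher with DOX in QGP-1 cells (29.5 to 31.2 against 16.8 to 19.4 CPM) and lower in BON-1 cells (15.7 to 19.0 against 24.5 to 29.1 CPM), and IRF7 is at 0 in the BON-1 libraries.

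**Figure D2:**
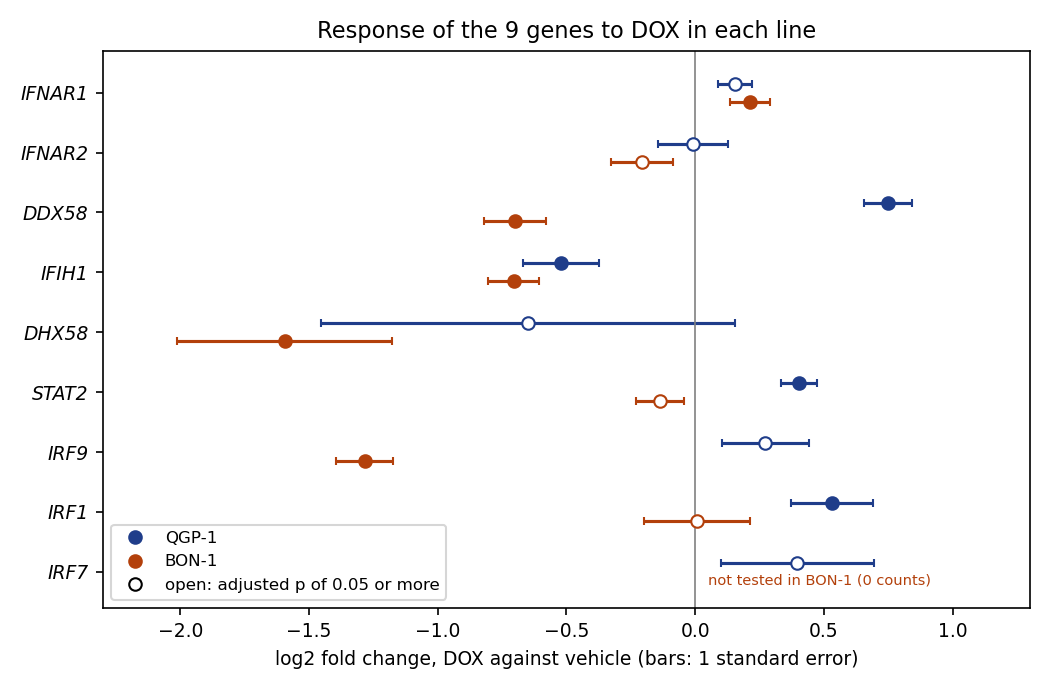
Log2 fold change of each gene with DOX against vehicle in either line, with bars of 1 standard error and open points where the edgeR adjusted p was 0.05 or more. The points of the lines lie on opposite sides of 0 and both filled for DDX58 (0.75 and −0.70), and both filled on the same side for IFIH1 (−0.52 and −0.70).

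Both receptor chains moved little in either line. IFNAR1, the chain that binds TYK2, lies on the plus strand of chromosome 21 (GRCh38, 33324387 to 33359864). Its levels in QGP-1 cells were 201, 192 and 198 CPM with vehicle and 206, 226 and 225 CPM with DOX. All 3 libraries with DOX were above those with vehicle, but by little, and the log2 fold change of 0.16 (standard error 0.07) had an edgeR adjusted p of 0.0792. BON-1 cells had 169, 154 and 170 CPM with vehicle and 185, 184 and 207 CPM with DOX, again without overlap. IFNAR1 was called higher there (log2 fold change 0.21, standard error 0.08, edgeR adjusted p = 0.0302), a call that was lost with library size in place of TMM (0.17, edgeR adjusted p = 0.0715), without the low-count filter (0.19, edgeR adjusted p = 0.0545) and without either vehicle replicate 2 or 3 or DOX replicate 1 or 3 (edgeR adjusted p from 0.0524 to 0.183). Without DOX replicate 1 in QGP-1 cells it was called higher in that line too (0.21, edgeR adjusted p = 0.0255).

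IFNAR2, the chain that binds JAK1, lies near it on the same strand (33205282 to 33265675). Its levels were 14.9, 18.8 and 19.5 CPM with vehicle and 21.1, 15.7 and 16.2 CPM with DOX in QGP-1 cells. The BON-1 libraries had 21.3, 23.1 and 18.6 CPM with vehicle and 18.3, 19.0 and 17.7 CPM with DOX. The groups overlapped in both lines. The log2 fold changes were −0.01 (standard error 0.14) and −0.21 (standard error 0.12), with edgeR adjusted p of 0.969 and 0.193. Its 95% interval in BON-1 cells, from −0.44 to 0.03, leaves room for a modest fall.

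Among the sensors, DDX58 was called in opposite directions in the lines. The gene lies on the minus strand of chromosome 9 (32455302 to 32526208). Levels in QGP-1 cells were 17.8, 16.8 and 19.4 CPM with vehicle and 29.5, 30.2 and 31.2 CPM with DOX. Each library with DOX was well above each with vehicle, a 1.68-fold rise (log2 0.75, standard error 0.09, edgeR adjusted p = 4.33e-05). BON-1 cells had 24.5, 28.3 and 29.1 CPM with vehicle and 15.9, 19.0 and 15.7 CPM with DOX. There the order was turned around, also without overlap, and DDX58 fell by 0.70 on the log2 scale (standard error 0.12, edgeR adjusted p = 4.61e-05). The calls in both lines held when any 1 library was left out.

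IFIH1, which prefers longer double-stranded RNA, lies on the minus strand of chromosome 2 (162267074 to 162318684), and its promoter with 3 ISRE core matches is printed above. In QGP-1 cells it had 10.5, 7.85 and 8.15 CPM with vehicle and 6.29, 6.03 and 6.10 CPM with DOX, where vehicle replicate 1 was the highest. IFIH1 fell there by 0.52 on the log2 scale (standard error 0.15, edgeR adjusted p = 0.0132), and the call was lost without vehicle replicate 1 (−0.38, edgeR adjusted p = 0.0750). Levels in BON-1 cells were 42.8, 41.5 and 46.0 CPM with vehicle and 27.3, 27.2 and 25.9 CPM with DOX. The groups stood well apart, and IFIH1 fell by 0.70 (standard error 0.10, edgeR adjusted p = 2.20e-06) in each fit without 1 library as well.

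DHX58, on the minus strand of chromosome 17 (42101404 to 42112714), was the least abundant sensor. It had 14, 10 and 15 counts with vehicle and 0, 13 and 11 with DOX in QGP-1 cells, too few to show a change (log2 fold change −0.65, standard error 0.81, edgeR adjusted p = 0.571). BON-1 cells had 64, 63 and 29 counts with vehicle, or 2.23, 2.72 and 1.55 CPM, and 13, 9 and 18 counts with DOX, or 0.805, 0.458 and 0.907 CPM. The groups did not overlap, and DHX58 fell by 1.59 on the log2 scale (standard error 0.42, edgeR adjusted p = 0.00359). All 3 sensors were thus lower with DOX in BON-1 cells, whereas in QGP-1 cells 1 rose and 1 fell.

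STAT2 and IRF9 are subunits of ISGF3. STAT2, which brings the transactivation domain, lies on the minus strand of chromosome 12 (56341597 to 56360203). Levels in QGP-1 cells were 76.1, 75.0 and 70.2 CPM with vehicle and 96.8, 98.4 and 97.4 CPM with DOX. The DOX libraries were within 2 CPM of each other and all above vehicle, and STAT2 rose 1.32-fold (log2 0.40, standard error 0.07, edgeR adjusted p = 0.000537). BON-1 cells had 51.1, 50.9 and 57.5 CPM with vehicle and 45.1, 46.0 and 55.0 CPM with DOX, which overlapped. Its log2 fold change there was −0.14 (standard error 0.09, edgeR adjusted p = 0.278).

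IRF9, the subunit that contacts the ISRE, lies on the plus strand of chromosome 14 (24161234 to 24168043), and its promoter stretch with a GAS is printed above. QGP-1 cells had 8.39, 5.65 and 7.36 CPM with vehicle and 9.70, 7.02 and 9.03 CPM with DOX. The groups overlapped (log2 fold change 0.27, standard error 0.17, edgeR adjusted p = 0.236). In BON-1 cells IRF9 had 84.2, 103 and 95.7 CPM with vehicle and 34.2, 48.8 and 34.0 CPM with DOX. The highest DOX library was far below the lowest vehicle library, a 2.43-fold fall (log2 −1.28, standard error 0.11, edgeR adjusted p = 5.50e-10).

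Of the interferon regulatory factors, IRF1 lies on the minus strand of chromosome 5 (132440440 to 132508719). Its levels in QGP-1 cells were 6.99, 5.46 and 4.76 CPM with vehicle and 7.77, 8.97 and 8.08 CPM with DOX. The groups did not overlap, and IRF1 rose 1.45-fold (log2 0.53, standard error 0.16, edgeR adjusted p = 0.0190). That call did not hold without vehicle replicate 2 (edgeR adjusted p = 0.0704), vehicle replicate 3 (0.0743) or DOX replicate 2 (0.0705). BON-1 cells had 4.91, 5.48 and 5.02 CPM with vehicle and 4.77, 5.91 and 4.89 CPM with DOX, groups that overlapped throughout. The log2 fold change was 0.01 (standard error 0.21, edgeR adjusted p = 0.982), and its sign turned with library size in place of TMM.

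IRF7, the factor that amplifies interferon production, lies on the minus strand of chromosome 11 (612553 to 615983). QGP-1 cells had 101, 62 and 64 counts with vehicle (2.72, 1.47 and 1.32 CPM) and 127, 94 and 86 with DOX (2.70, 2.44 and 2.05 CPM). Vehicle replicate 1 lay among the DOX libraries, and no change was called (log2 fold change 0.40, standard error 0.30, edgeR adjusted p = 0.327). Each of the 6 BON-1 libraries had 0 counts. A count of 0 over the BON-1 vehicle group allows up to 3 counts, or 0.0425 CPM, which covers counting error only.

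Whether the lines responded differently was tested by the line-by-DOX interaction term of 1 edgeR fit over all 12 libraries. Of the 9 genes, 3 had a response lower in BON-1 than in QGP-1 cells and 0 had a higher one, against 7.92% lower, 8.8% higher and 16.7% either way of the 16598 genes in that fit. With library size in place of TMM the all-gene split moved from 1461 higher and 1315 lower to 1123 higher and 1823 lower, and the same number of the 9 genes was called lower. DDX58 differed by −1.44 (standard error 0.16, edgeR adjusted p = 6.68e-07), IRF9 by −1.55 (standard error 0.21, edgeR adjusted p = 1.32e-05) and STAT2 by −0.53 (standard error 0.12, edgeR adjusted p = 0.00377), all in log2 units. These calls held when any 1 of the 12 libraries was left out. For IFIH1, which fell in both lines, the difference was −0.18 with a 95% interval from −0.50 to 0.15 (edgeR adjusted p = 0.517), an interval that still holds falls of unequal size. IFNAR1 had a difference of 0.07 with an interval from −0.13 to 0.27 (edgeR adjusted p = 0.717). IFNAR2 (−0.19), DHX58 (−0.94) and IRF1 (−0.51) were not called either. IRF7 gave no usable difference because BON-1 cells had no count.

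Set side by side over the 13535 genes tested in both lines, DDX58 was called higher in QGP-1 and lower in BON-1 cells, as were 1.19% of all these genes, and IFIH1 was called lower in both, as were 7.23%. None of the 8 genes tested in both lines was called higher in both, against 6.88% of all genes, or lower in QGP-1 and higher in BON-1 cells, against 1.5%.

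With vehicle the lines started from different levels. The BON-1 level was the higher one for 5 of the 9 genes (IRF9, DHX58, IFIH1, DDX58 and IFNAR2) and the lower one for 3 (IRF7, STAT2 and IFNAR1), and IRF1 was not called. Over all 15835 genes tested 39.4% were called higher in BON-1 cells, 38% lower and 77.5% either way, and 79.1% had groups without overlap, so that a difference in level between the lines was the rule. Line, culture medium and any separate preparation of the lines cannot be told apart in this comparison. IRF9 was 13.6-fold higher in BON-1 cells (94.5 ± 9.68 against 7.13 ± 1.39 CPM, SD, n = 3 each, edgeR adjusted p = 2.34e-16). DHX58 was 7.21-fold higher (2.16 ± 0.587 against 0.308 ± 0.0697 CPM, edgeR adjusted p = 3.64e-06) and IFIH1 5.06-fold higher (43.4 ± 2.31 against 8.83 ± 1.45 CPM, edgeR adjusted p = 2.12e-13). These are the subunit that binds DNA and 2 of the sensors. DDX58 differed by less, with a log2 difference of 0.63 (standard error 0.11, edgeR adjusted p = 2.91e-05). IRF7 was at least 41.8-fold lower in BON-1 cells, a bound taken from the 3 counts that a count of 0 over the group allows. STAT2 (log2 −0.43, edgeR adjusted p = 6.74e-05) and IFNAR1 (log2 −0.22, edgeR adjusted p = 0.00633) were slightly lower in BON-1 cells. The IFNAR2 call (log2 0.28, edgeR adjusted p = 0.0479) had overlapping groups and was lost with DESeq2, without the low-count filter and in 4 of 6 fits that left out 1 library.

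Levels of different genes were compared within a library on the authors' TPM values, which divide counts by gene length. Between groups these values did not follow CPM. IFNAR1 in QGP-1 cells had a mean of 11.6 TPM with vehicle and 21.7 TPM with DOX, but 197 and 219 CPM. The TPM means are therefore not compared between groups or lines. In QGP-1 cells with vehicle the order was IFNAR1 (11.6 ± 0.997 TPM, SD, n = 3), STAT2 (5.93 ± 0.673), IFNAR2 (2.10 ± 0.162), IRF9 (1.76 ± 0.429), DDX58 (1.37 ± 0.0960), IFIH1 (0.918 ± 0.216), IRF1 (0.559 ± 0.153), IRF7 (0.160 ± 0.0790) and DHX58 (0.0455 ± 0.0128). IFNAR2 and IRF9 changed places between libraries, and the other genes held 1 rank in all 3. BON-1 cells with vehicle had IRF9 first (62.1 ± 18.7 TPM), then IFNAR1 (25.4 ± 3.98), IFIH1 (11.8 ± 2.21), STAT2 (11.2 ± 2.28), IFNAR2 (6.62 ± 1.87), DDX58 (5.55 ± 1.49), IRF1 (1.31 ± 0.345), DHX58 (0.853 ± 0.368) and IRF7 at 0. IFNAR2 and DDX58 changed places between libraries there. IFIH1 stood slightly above STAT2 in all 3 libraries, by less than the SD between libraries. In BON-1 cells with vehicle IRF9 lay above 92.7% to 94.5% of the genes with a TPM above 0, and in QGP-1 cells above 49.0% to 54.3%. IFNAR1 ranked alike in the lines, above 84.0% to 84.9% in BON-1 and 86.7% to 86.8% in QGP-1 cells.

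Ratios of genes within a library, chosen after their values were seen and given as a description, show how the balance of STAT2 and IRF9, and of the sensors, differed. IRF9 stood at 5.46 ± 0.665 times the STAT2 level in BON-1 cells with vehicle and at 2.49 ± 0.697 times with DOX, against 0.297 ± 0.0577 and 0.270 ± 0.0460 in QGP-1 cells (TPM ratios, SD, n = 3 each). The RNA of IRF9 thus exceeded that of STAT2 in BON-1 cells, and by less with DOX. For the sensors, DDX58 over IFIH1 went from 1.54 ± 0.256 with vehicle to 3.66 ± 0.162 with DOX in QGP-1 cells, without overlap. In BON-1 cells, where both sensors fell, it was 0.466 ± 0.0409 and 0.466 ± 0.0456.

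**Figure D3:**
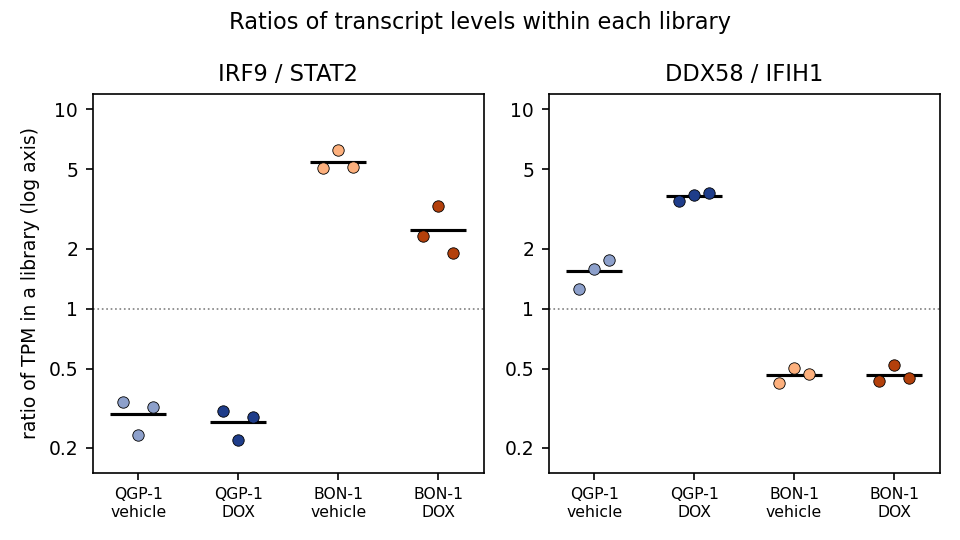
Ratios of the authors' TPM values of 2 genes within each library, on a log axis, by line and treatment (points are libraries, lines are group means, n = 3, and the dotted line is a ratio of 1). The ratio of IRF9 to STAT2 is 5.05 to 6.23 in BON-1 cells with vehicle and 1.89 to 3.26 with DOX, and the ratio of DDX58 to IFIH1 is 1.26 to 1.76 in QGP-1 cells with vehicle and 3.48 to 3.79 with DOX.

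The rest of the pathway was described by lists of 119 genes, all of them among the genes counted and 15 at 0 in all libraries. The lists were written from general knowledge, but with earlier results of these data known, so their shares are a description. In QGP-1 cells 15 of the 68 that could be tested were higher with DOX and 7 lower, with a median log2 fold change of 0.06, where 17.3% and 17.7% of all genes were called, so that the share called higher was near the background. Fits that each left out 1 library called between 3 and 10 lower, with 4 without vehicle replicate 1 and 3 without vehicle replicate 2. BON-1 cells had 13 of 81 higher and 39 lower, with a median of −0.42, against the 17% of all genes called higher and 18.3% called lower in that line. With a minimum of 10 counts in each library 36 were lower. The lower genes of BON-1 cells lay mostly among the interferon-stimulated effectors, the antiviral proteins made in response to interferon. Of the 34 effectors listed 29 passed the low-count filter in that line, of which 23 fell and 0 rose (median −0.97), and IFI6, an interferon-inducible mitochondrial protein, fell by 3.69 on the log2 scale, from 59.2 ± 9.50 to 4.67 ± 1.58 CPM (SD, n = 3 each). In QGP-1 cells 17 effectors passed the filter, of which 2 rose and 0 fell (median −0.04), and the ubiquitin ligase family gene HERC6 rose most, by 0.73. The lines started from different effector levels. With vehicle, 26 of the 30 effectors tested between the lines were higher in BON-1 cells and 2 lower, against 39.4% and 38% of all genes. The median log2 difference was 3.79. An effector could pass the low-count filter of this comparison through 1 line alone. PARP14 was at 0 and BST2 at 0.0137 CPM in QGP-1 cells with vehicle, against 139 and 55.6 CPM in BON-1 cells. For such genes the direction was fixed by the filter, and the median rests in part on levels near 0, so these counts are a description. IFI6 had 0.286 ± 0.148 CPM in QGP-1 cells with vehicle, a level at which a fall could hardly be seen.

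Of the 12 other nucleic acid sensors listed, 5 passed the low-count filter in BON-1 cells. All 5 were lower with DOX there (median −0.80), where 18.3% of all genes were called lower. OAS2, which makes the activator of RNase L, was at −1.20 (edgeR adjusted p = 0.0489). It had few counts, 26 to 37 with vehicle and 8 to 13 with DOX, and a gene high in 1 group alone can pass that filter. In QGP-1 cells 1 of 5 rose, the double-stranded RNA editing enzyme ADAR (0.35), and 1 fell, OAS3 (−0.38). Among the other STATs, STAT3 (0.24) and STAT5B (0.23) rose and STAT6 fell (−0.27) in QGP-1 cells. In BON-1 cells STAT5B rose (0.34) and STAT3 fell (−0.21). Adaptors and kinases of nucleic acid sensing had 4 of 12 higher and 0 lower in QGP-1 cells and 4 higher and 2 lower in BON-1 cells. The Toll-like receptor adaptor MYD88 rose by 0.57 in each line, and TRAF3, a ligase between MAVS and its kinases, fell in BON-1 cells (−0.42).

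Among the other interferon receptors and Janus kinases, JAK1, which is bound by IFNAR2, rose in both lines (0.44 for QGP-1 and 0.38 for BON-1). The receptor chains IFNGR1, for type II interferon (−0.62 and −0.43), and IFNLR1, for type III interferon (−0.41 and −0.86), fell in both. In all 1 of 7 rose and 3 fell in QGP-1 cells, and 1 rose and 2 fell in BON-1 cells. Of the other IRFs, IRF3 was the only 1 of 4 called in QGP-1 cells (−0.50). BON-1 cells had 2 of 5 higher, while IRF8 fell (−0.95). Among 18 negative regulators 4 rose and 1 fell in QGP-1 cells and 5 rose and 4 fell in BON-1 cells. The counts of these smaller lists are read against the 17.3% higher and 17.7% lower of all genes in QGP-1 cells, and the 17% and 18.3% in BON-1 cells. For the 18 negative regulators both shares were above that background in BON-1 cells. In QGP-1 cells their share higher was above it and their share lower below it. These differences amount to few genes. The ubiquitin ligase gene RNF125 rose most in BON-1 cells (1.60) and the mitochondrial protein gene NLRX1 fell most (−0.63).

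**Figure D4:**
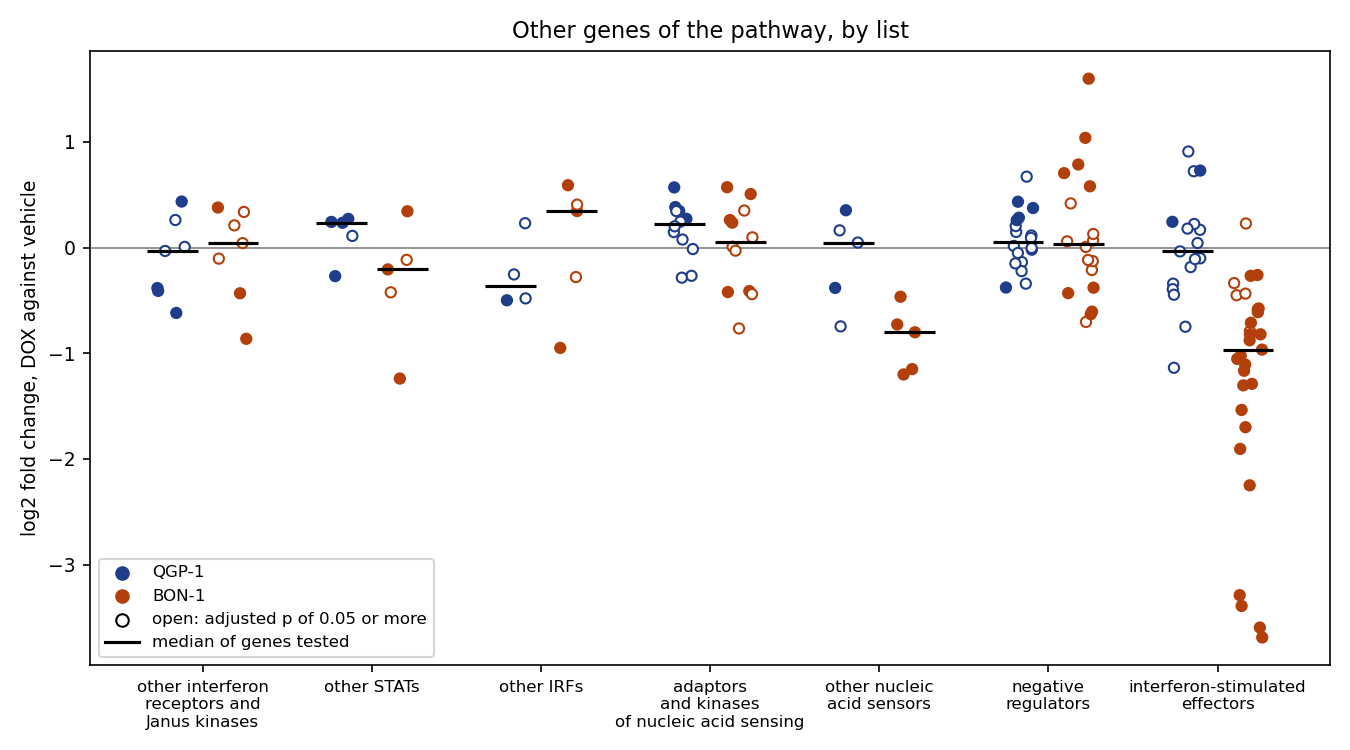
Log2 fold change with DOX against vehicle of each gene tested in 7 lists of the pathway, in QGP-1 and BON-1 cells (filled points have an edgeR adjusted p below 0.05, bars are list medians). The effectors spread downwards in BON-1 cells, with a median of −0.97 and 23 of 29 lower. The 17 that could be tested in QGP-1 cells, where most effectors were low with vehicle, have a median of −0.04.

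Among the 66 list genes tested in both lines, STAT3, ADAR, SAMD9 and HERC6 were higher in QGP-1 and lower in BON-1 cells, the pattern of DDX58. Their log2 fold changes were 0.24 to 0.73 for QGP-1 and −0.21 to −1.17 for BON-1. The interaction of line and DOX was called lower for each of them, from −0.44 for STAT3 to −1.83 for HERC6. The 4 that fell in both lines, like IFIH1, were IFNGR1, IFNLR1, OAS3 and USP18, a deubiquitinating-type enzyme that removes ISG15 and damps the receptor. The 6 that rose in both were JAK1, STAT5B, MYD88, TRAF6, CYLD and PTPN1, of which PTPN1 encodes a phosphatase of Janus kinases. None of the 66 fell in QGP-1 and rose in BON-1 cells. The shares that fell in both and that rose in both were near the 7.23% and 6.88% of all genes given above.

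The 21 interferon genes looked up, of types I, II and III, were not detected well enough to test. Of these, 14 had 0 counts in the 12 libraries together and the other 7 shared 26 counts. IFNL1, a type III interferon gene, had 2, 2 and 7 counts in the BON-1 vehicle libraries and 0 in each with DOX. At this depth 0 of the interferon genes passed the low-count filter in either line, so a change in their transcripts was not tested.

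The genes whose pattern was most like that of each of the 9 were found by Pearson's r over the 12 libraries on log2 CPM, after subtraction of each line's mean, among genes whose log2 CPM averaged 1 or more. They are a description, since libraries of a group share their treatment, and no p is given. DDX58 was closest to the splicing factor gene CELF3 (0.949) and to ERAP1 (0.942), which trims peptides for MHC class I. CELF3 was itself higher with DOX in QGP-1 cells and lower in BON-1 cells (log2 0.52 and −0.47), as was ERAP1 (0.44 and −0.40). IFIH1 was closest to the calcium channel subunit gene CACNA2D2 (0.967) and MMAB (0.962), both lower in each line. IRF9 was closest to CLSTN3 (0.948) and DTNB (0.946), and STAT2 to ZNF507 (0.949) and CLASP1 (0.937). For the receptors the nearest were EBF1 (0.979) and CUL5 (0.977) to IFNAR1, and CEP152 (0.862) and KPTN (0.853) to IFNAR2. IRF1 was nearest to RRBP1 (0.958) and HIRA (0.946), DHX58, with its few counts, to SEC22C (0.966) and BMP1 (0.952), and IRF7 to ETV5 (0.933) and SLC18A1 (0.919). The r of IRF7 rests on the QGP-1 libraries. Within the 9 genes the highest values were 0.798 for IRF1 with IRF7 and 0.790 for DDX58 with IRF9, and the lowest was −0.784 for IFNAR1 with IFIH1.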

How the data were processed

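RNA was sequenced by the authors from QGP-1 and BON-1 cells as stranded mRNA libraries, with 3 libraries in each of 4 groups, which the study calls biologic triplicates. The p-values measure the spread between these libraries. The authors aligned the reads with STAR to GRCh38 and deposited raw counts per gene, without normalization, and TPM values, in which counts are divided by gene length and scaled per library. The counting program and its use of strand are not given in the sources used here. IFNAR2, DDX58 and IRF9 overlap protein-coding readthrough genes on the same strand in GENCODE v44, and IRF1, IRF9, IFNAR1 and IFNAR2 overlap genes on the opposite strand, none of which is a row of the count tables under its GENCODE name. How reads in these overlaps were counted is unknown.

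Tests of the deposited counts used edgeR 4.0.16 under R 4.3.3 (default low-count filter, TMM, quasi-likelihood F test, Benjamini-Hochberg adjustment, adjusted p below 0.05, no minimum fold). Fits of each line, of the interaction over 12 libraries and of vehicle between the lines used all genes. Levels in CPM were scaled by TMM over the 12 libraries together. With 38224144 to 50525926 counts per library in QGP-1 and 15981954 to 28484324 in BON-1 cells, counting error limits DHX58, IRF7 and the interferon genes. For the other genes the parts of counting error and of spread between libraries were not tested. No 2 replicates agreed within sampling noise (chi-square per gene from 5.72 to 28.2). Columns were matched to libraries by the names in the labels, and 0 columns were left unused.

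The genes named are the 9 genes in each comparison, MUC1, the list genes called in both lines, the called genes at either extreme of log2 fold change in each list and line, and for each of the 9 the 2 genes with the highest Pearson correlation. Some genes that this rule names are not reported here. The 9 genes and the lists were chosen with earlier results of these data known. The alternatives were DESeq2 1.42.0, library size in place of TMM, no low-count filter, a minimum of 10 counts throughout, a block for the replicate number, 1 fit of all 12 libraries, and leaving out each library in turn. The code was tested on simulated data.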

Additional observations from a re-analysis of the deposited data

Results flagged for a closer look

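For 3 of the 9 genes the response to DOX differed between the lines by the interaction test of edgeR, with BON-1 minus QGP-1 in log2 units. The difference was −1.44 for DDX58, which rose in QGP-1 and fell in BON-1 cells. It was −1.55 for IRF9, which fell in BON-1 cells and was not called in QGP-1 cells. For STAT2, which rose in QGP-1 cells and was not called in BON-1 cells, it was −0.53.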

How the results depend on the processing

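The calls of DDX58 in both lines, of STAT2 in QGP-1 cells, of IRF9, IFIH1 and DHX58 in BON-1 cells, and of the 3 interactions were made in every fit that left out 1 library. DHX58 in BON-1 cells was not tested with at least 10 counts in every library. The number of the 9 genes called higher in BON-1 cells, 1 (IFNAR1), became 0 with library size in place of TMM and 0 without the low-count filter, and 0 to 1 when 1 library was left out. The number lower in QGP-1 cells, 1 (IFIH1), was 0 to 1 when 1 library was left out. Of the other pathway genes, 7 were lower in QGP-1 cells, 11 with all 12 libraries in 1 fit, and 3 to 10 without 1 library. Values that turned sign belonged to genes not called. IFNAR2 in QGP-1 cells (log2 −0.01) was 0.0042 with library size and −0.15 to 0.0724 without 1 library. IRF1 in BON-1 cells (0.01) was −0.0385 with library size, −0.0121 without the filter, −0.0077 with at least 10 counts, and −0.106 to 0.0482 without 1 library. The IFNAR1 interaction (0.07) was −0.0034 with library size and −0.0311 to 0.0907 without 1 library, and IRF1 between the lines with vehicle was −0.24 to 0.0332. The cause was not tested. Library size moved the median of all genes to −0.06 in BON-1 cells, −0.07 for the interaction and 0.10 between the lines.

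Libraries with the same number did not deviate together (correlations from −0.0138 to 0.0430 in the pairs of each line). This gave no sign of pairing by number but cannot exclude that libraries were prepared in pairs. With the replicate number as a block, 3 of the 9 genes were higher and 1 lower in QGP-1 cells, and 1 higher and 4 lower in BON-1 cells, as without the block, and over all genes 2749 were higher and 2738 lower in QGP-1 cells and 2408 and 2656 in BON-1 cells.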
